A study of Mus musculus with 10 samples.

Results

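Ier3 and 9 other immediate early genes (Ier2, Junb, Jun, Fos, Egr1, Atf3, Klf6, Myc and Dusp1) were followed through 10 RNA-seq libraries of mouse V6.5 embryonic stem cells (ESCs) and of neural cells made from those ESCs, labelled NPCs. These are 10 genes of the 24520 in the deposited table, and all 10 were among the 11956 genes that had at least 1 RPKM (read count scaled by transcript length in kilobases and by library size in mega-reads) in at least 2 libraries. The genes were chosen by measured values: Ier3 was the 1 gene called after Cbx3 siRNA in NPCs when all 10 libraries were fitted together, and Junb and Klf6 were known to be high in the same contrast. That contrast is therefore described here without p-values for these genes, and nothing is read from their calls in it. Each gene was represented by its transcript row with the highest mean RPKM, and only Myc had more than 1 row.

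The 5 groups had 2 libraries each, called biological replicates by the labels. ESCs were grown on irradiated mouse embryonic fibroblasts with leukemia inhibitory factor and received siRNA against luciferase (ESC control) or against Cbx3 (ESC Cbx3 siRNA). For NPCs, embryoid bodies were formed over 4 days and plated as a monolayer in ITSF medium. These cells received siRNA on day 5 against luciferase (NPC control), Cbx3 (NPC Cbx3 siRNA) or Med26 (NPC Med26 siRNA), and RNA was taken on day 8. The control groups thus also carry a transfected siRNA, all groups come from 1 cell line, and the day of ESC transfection is not given in the labels. The labels do not say whether replicates came from separate cultures or transfections, so the p-values measure the spread between these libraries only.

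Immediate early genes are transcribed within minutes of a growth factor, stress or cytokine signal, without new protein synthesis, through transcription factors that are already in the cell. Serum response factor with its ETS partners, CREB and NF-kB are the main factors at their promoters, and release of paused RNA polymerase II is a major control step. Many of the products are transcription factors themselves, such as the AP-1 subunits, while others, such as the phosphatase DUSP1, switch the signal off again. Cbx3 encodes HP1 gamma, a chromodomain protein found in heterochromatin and on transcribed genes. Med26 encodes a Mediator subunit that recruits elongation factors to RNA polymerase II.

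The promoters of Ier3, Junb and Klf6 are shown because these 3 of the 10 genes were called higher in both NPC knockdowns. Of all genes tested, 7.80% were called higher after Cbx3 siRNA and 6.90% after Med26 siRNA, and the share in both was not counted. The genes were picked from the Cbx3 contrast and both contrasts share their controls, so the choice is for display only. These calls come from the fit of the NPC libraries alone, and in the fit of all 10 libraries only Ier3 was called. Fos also lay above control in both knockdowns, but was not called. RefSeq (GRCm38.p6) promoter sequences, from 250 bases before to 50 bases after the gene start, were matched for 7 of the 10 genes. Capitals mark a GC box running into an NF-kB site in Ier3, a TATA box in Junb, and a GC box followed by an E-box in Klf6.
Ier3, chr17:35821463-35821762, plus strand: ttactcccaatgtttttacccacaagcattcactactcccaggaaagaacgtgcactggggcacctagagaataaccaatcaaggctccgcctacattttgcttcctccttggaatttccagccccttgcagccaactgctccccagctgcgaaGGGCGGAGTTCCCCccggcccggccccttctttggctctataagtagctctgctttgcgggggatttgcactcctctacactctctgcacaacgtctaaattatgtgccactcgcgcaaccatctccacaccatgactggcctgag
Junb, chr8:84978699-84978998, minus strand: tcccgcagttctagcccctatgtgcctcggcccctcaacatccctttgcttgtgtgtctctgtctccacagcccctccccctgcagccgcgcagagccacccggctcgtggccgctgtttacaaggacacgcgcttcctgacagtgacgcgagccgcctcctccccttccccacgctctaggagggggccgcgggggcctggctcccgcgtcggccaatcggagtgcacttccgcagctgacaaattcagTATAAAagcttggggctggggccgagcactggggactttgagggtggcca
Klf6, chr13:5861239-5861538, plus strand: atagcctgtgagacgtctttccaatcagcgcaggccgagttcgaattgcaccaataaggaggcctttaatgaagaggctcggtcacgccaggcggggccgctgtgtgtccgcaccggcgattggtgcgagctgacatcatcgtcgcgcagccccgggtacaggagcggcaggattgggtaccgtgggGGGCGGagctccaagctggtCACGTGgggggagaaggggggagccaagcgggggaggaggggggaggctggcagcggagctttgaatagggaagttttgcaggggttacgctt

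Letters of 8 motifs were searched on both strands of the 7 promoters and of all 32851 promoters of the same length. The GC box, GGGCGG, was present in 6 of the 7 (Ier3, Klf6, Jun, Fos, Atf3 and Dusp1) and in 35.7% of all promoters. The NF-kB site was present in Ier3 and Fos, against 8.46% of all promoters, and in Ier3 it overlaps the GC box. The TATA box, TATAAA, was present in Junb and Fos (13.6% of all). In Junb its letters began at the annotated gene start (position 0), and in Fos at position -33. The E-box, CACGTG, was present in Klf6 and Dusp1 (7.15%), and the CRE, TGACGTCA, in Dusp1 (1.79%). The CArG box of serum response factor (1.63% of all), the AP-1 site, TGANTCA (7.81%), and the EGR site, GCGTGGGCG or GCGGGGGCG (3.47%), had no match in these windows. The 3 promoters printed have no motif in common except the GC box that Ier3 and Klf6 share. A match describes letters and is not a measured binding site.

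The knockdowns were visible in the targeted genes. In NPCs, Cbx3 fell from 9.37 and 9.65 RPKM to 0.425 and 0.248 RPKM under its siRNA (log2 change -2.98, adjusted p = 0.000172, limma). Med26 fell from 7.56 and 6.78 RPKM to 3.04 and 3.07 RPKM (-1.01, adjusted p = 0.00398, limma). In ESCs, Cbx3 RNA stood at 14.0 and 56.4 RPKM with the luciferase siRNA and at 1.01 and 1.96 RPKM with its own (-3.59, adjusted p = 0.291, limma), so the ESC control replicates differed widely in the target itself. The steps of low RPKM values correspond to 23.25 to 63.8 M reads per library, lowest in replicate 2 of both ESC groups. Of 8 neural progenitor markers, 3 reached 1 RPKM in any library, their sum was 45.99 to 48.21 RPKM in NPC control against 10.79 to 23.44 RPKM in ESCs, and Zbtb16 stayed below 0.1 RPKM. The 10 pluripotency markers summed to 984.7 and 1005 RPKM in NPC control and to 1236 to 1757 RPKM in ESCs.

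**Figure D1:**
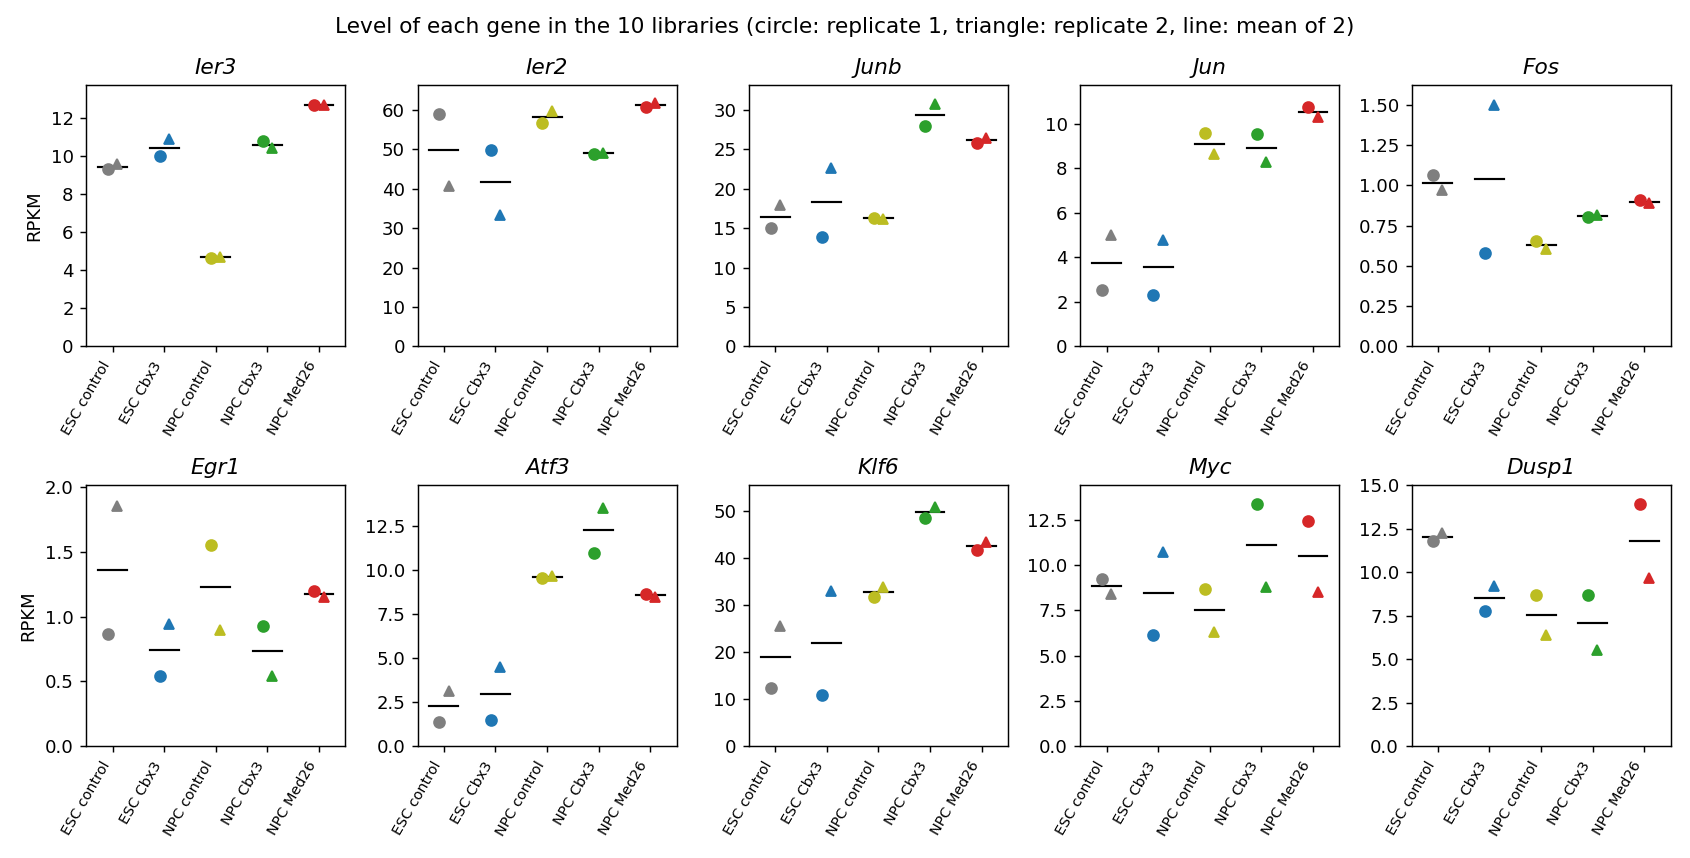
RPKM of each of the 10 genes (vertical axes, linear and starting at 0) in the 5 groups (horizontal axis), with a circle for replicate 1, a triangle for replicate 2 and a line for their mean. Ier3 is lowest in both NPC control libraries (4.66 and 4.69 RPKM), and the Jun, Atf3 and Klf6 replicates lie far apart in ESCs.

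Ier3, which encodes an early response protein known for effects on apoptosis and on ERK and NF-kB signalling, had levels of 4.66 and 4.69 RPKM in NPC control, 10.8 and 10.4 RPKM after Cbx3 siRNA and 12.7 and 12.7 RPKM after Med26 siRNA. The ESC levels were 9.29 and 9.58 RPKM (control) and 9.997 and 10.9 RPKM (Cbx3 siRNA). NPC control stood apart below every other library, and the 8 libraries of the other 4 groups lay within 9.29 to 12.7 RPKM. In order of group means, NPC control (4.67 RPKM) was followed by ESC control (9.43 RPKM), ESC Cbx3 siRNA (10.43 RPKM), NPC Cbx3 siRNA (10.58 RPKM) and NPC Med26 siRNA (12.66 RPKM). The ranges of ESC Cbx3 siRNA and NPC Cbx3 siRNA overlapped. Ier3 rested on an estimated 261 to 914 reads per library, and its replicates differed by a factor of 0.97 to 1.09 in all 5 groups. Read numbers here and below are rough, since counts could not be recovered from RPKM.

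After Cbx3 siRNA in NPCs, Ier3, Junb and Klf6 were higher than in control, and Ier2, another early response gene of the IER family, was lower. The mean of Ier3 was 2.26 times the control mean, a log2 change of 1.03 (standard error, SE, 0.06) on the log2(RPKM + 1) scale, which understates changes of low genes. Junb, an AP-1 subunit, was 27.9 and 30.8 RPKM against 16.3 and 16.1 RPKM in control, a log2 change of 0.81 (SE 0.06). Klf6, a zinc finger transcription factor, was 48.5 and 50.9 RPKM against 31.8 and 33.8 RPKM, a log2 change of 0.59 (SE 0.06). For these 3 genes each knockdown library lay above each control library, but the share of all genes that did so was not counted in this contrast. Ier2 was 48.8 and 49.1 RPKM against 56.5 and 59.6 RPKM in control, a log2 change of -0.24 (SE 0.05). In the fit of the 6 NPC libraries (limma) these 4 of the 10 genes, 3 higher and 1 lower, were called, as were 7.80% (higher) and 5.33% (lower) of all genes tested. In the fit of all 10 libraries Ier3 alone was called. The median log2 change of the 10 genes was 0.23 and that of all genes tested 0.01. Nothing is read from these counts and medians, since the genes were picked from this contrast.

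The other 6 genes were not called in this contrast. Nothing is read from whether their libraries overlapped, since the share over all genes was not counted. Atf3, an AP-1 and ATF family factor of the stress response, was 11.0 and 13.5 RPKM against 9.53 and 9.69 RPKM in control (log2 change 0.32, SE 0.10), without overlap. Jun, the AP-1 subunit that partners with FOS, overlapped at 9.55 and 8.28 RPKM against 9.58 and 8.62 RPKM. Fos itself was near the lower end of detection, at 0.805 and 0.815 RPKM against 0.657 and 0.608 RPKM. Neither classical inducible factor was abundant in these cultures: Fos ranged from 0.583 to 1.501 RPKM over the 10 libraries, on an estimated 41 to 120 reads, and Egr1, a zinc finger factor induced by ERK signalling, from 0.542 to 1.86 RPKM, on 55 to 254 reads. Egr1 was 0.926 and 0.542 RPKM after Cbx3 siRNA against 1.56 and 0.899 RPKM, overlapping. Myc, the growth-promoting transcription factor, was 13.4 and 8.79 RPKM against 8.70 and 6.32 RPKM, without overlap by a margin smaller than its replicate spread. Dusp1, the phosphatase that inactivates MAP kinases, was 8.70 and 5.53 RPKM against 8.68 and 6.38 RPKM, overlapping. In Myc and Dusp1 replicate 2 was lower than replicate 1 in each of the 3 NPC groups (0.73, 0.66 and 0.68 times for Myc in control, Cbx3 siRNA and Med26 siRNA, and 0.74, 0.64 and 0.70 times for Dusp1).

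**Figure D2:**
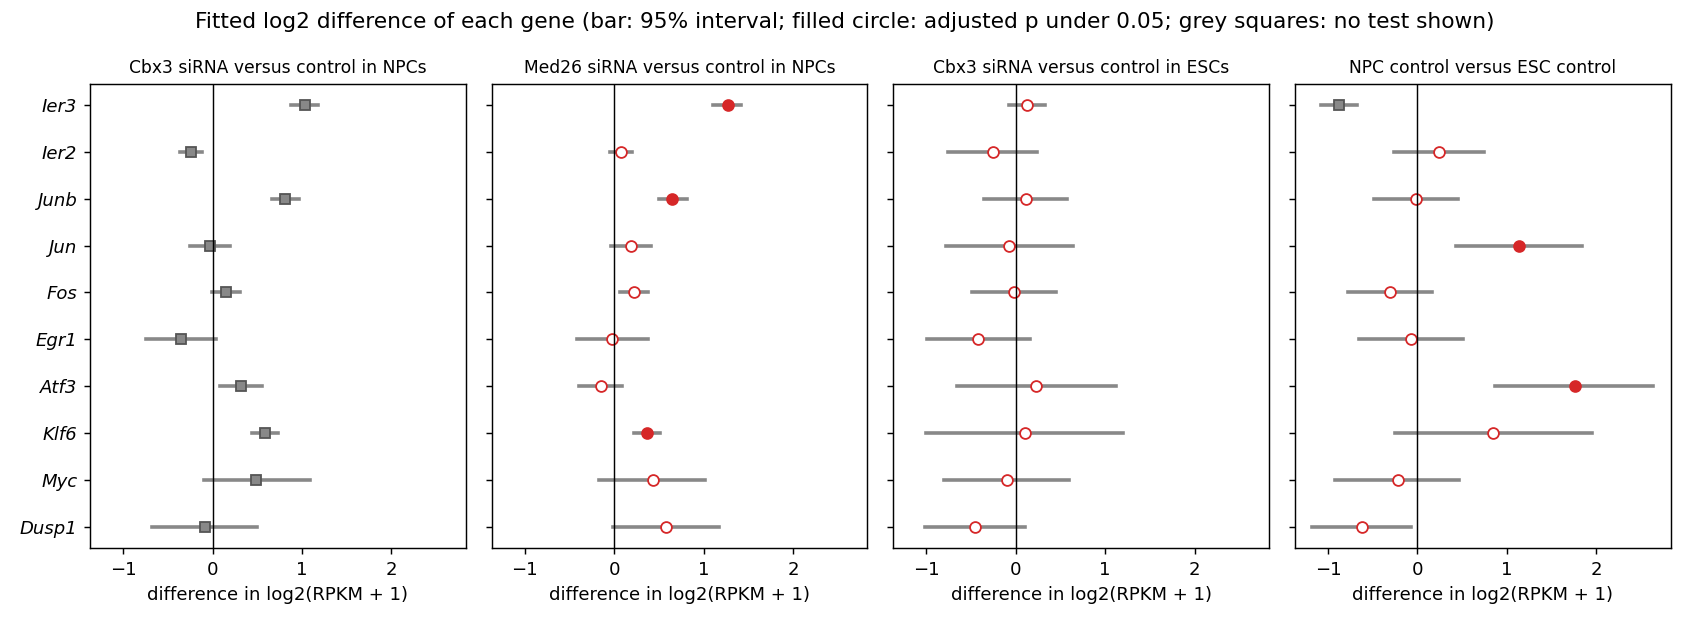
Fitted difference in log2(RPKM + 1) of each gene (horizontal axis) with its 95% interval (bar) in 4 comparisons. Filled circles passed adjusted p under 0.05, and grey squares (the contrast from which the genes were picked, and Ier3 between controls) carry no test. The filled circles of Ier3, Junb and Klf6 after Med26 siRNA rest on the control libraries against which these genes were picked. Ier3 rises by 1.27 after Med26 siRNA and is lower by 0.88 in NPC control than in ESC control, while the ESC intervals of Klf6 and Atf3 are wide.

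After Med26 siRNA in NPCs, Ier3, Junb and Klf6 rose. Ier3 was 2.71 times the control mean (log2 change 1.27, 95% interval 1.11 to 1.42, adjusted p = 0.000846, limma). Junb was 25.8 and 26.5 RPKM after Med26 siRNA, 1.61 times control (log2 change 0.65, SE 0.06, adjusted p = 0.00428, limma). Klf6 was 41.7 and 43.4 RPKM, 1.30 times control (log2 change 0.37, SE 0.06, adjusted p = 0.0153, limma). These are 3 of 10 genes higher and 0 lower, against 6.90% of all genes called higher and 6.46% lower. The median log2 change was 0.29 for the 10 genes and -0.00 for all genes tested. This comparison uses the same 2 NPC control libraries as the Cbx3 contrast, so a low Ier3 control value enters both. The 3 genes were picked against these controls, so their values and adjusted p are a description and not independent evidence here. Nothing is read from their count or from the median. In the fit of all 10 libraries Ier3 passed, while Junb (adjusted p = 0.268) and Klf6 (adjusted p = 0.894) did not, with unchanged log2 values. Without either NPC control or either Med26 siRNA library, the adjusted p of Klf6 was 0.0557 to 0.0812, whereas Ier3 (0.00319 to 0.0191) and Junb (0.00813 to 0.0417) passed without any single library (limma). In a fit blocked on replicate number, a pairing the labels do not state, Jun, Fos, Myc and Dusp1 also passed, 7 of 10 in all. Jun (adjusted p = 0.0494, limma) and Fos (adjusted p = 0.0491, limma) did so narrowly. That fit called 3705 of all 11956 genes tested, against 1597 without the block, so nothing is read from the 7.

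The remaining 7 genes did not pass after Med26 siRNA. Fos was 0.907 and 0.892 RPKM, above both controls (log2 change 0.22, adjusted p = 0.075), and Jun was 10.8 and 10.3 RPKM, also above both (0.19, adjusted p = 0.207). Dusp1 was 13.9 and 9.67 RPKM, above both controls as well (0.58, adjusted p = 0.168), with replicates that differed by a factor of 0.70. Myc was 12.5 and 8.52 RPKM and overlapped control (0.43, adjusted p = 0.292). Atf3 was 8.66 and 8.50 RPKM, below both controls (-0.15, adjusted p = 0.36), and Ier2 was 60.7 and 61.7 RPKM, above both (0.08, adjusted p = 0.367). Egr1 was 1.19 and 1.15 RPKM, inside the control range (-0.02, adjusted p = 0.952, all limma).

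Levels after Cbx3 siRNA and after Med26 siRNA in NPCs were also set side by side. Ier3 was lower after Cbx3 siRNA than after Med26 siRNA by 0.24 on the log2 scale, and Ier2 by 0.32. Atf3 was higher after Cbx3 siRNA by 0.46 and Klf6 by 0.22. Dusp1 was lower by 0.66 (8.70 and 5.53 against 13.9 and 9.67 RPKM), Egr1 by 0.34, Jun by 0.22 and Fos by 0.07, and Junb was higher by 0.16. In these 9 genes the 2 pairs of libraries did not overlap, 3 higher and 6 lower after Cbx3 siRNA, as in 32.9% (higher) and 28.8% (lower) of all genes tested. Myc overlapped. The Ier2 and Atf3 values lay on opposite sides of control in the 2 knockdowns. Atf3 and Klf6 (higher) and Ier3 and Ier2 (lower) were called, beside 10.4% and 7.87% of all genes tested. In the fit of all 10 libraries none of the genes was called. This comparison contains the libraries from which the genes were picked, so it is a description, and nothing is read from these calls.

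In ESCs, none of the 10 genes passed the test after Cbx3 siRNA: every adjusted p was 1 (limma), as 0 (0%) of all genes tested were called, although 645 genes had an unadjusted p under 0.05. Blocked on replicate number, Ier2 (adjusted p = 0.0246) and Dusp1 (adjusted p = 0.0157), both lower, were called (limma), and 813 genes in all. These libraries share no sample with the NPC contrast. Ier3 was 1.11 times the control mean with both knockdown libraries above both controls, a log2 difference of 0.13 (95% interval -0.07 to 0.33). Dusp1 was 7.79 and 9.22 RPKM against 11.8 and 12.3 RPKM in control, a log2 difference of -0.46 (95% interval -1.01 to 0.10), without overlap. Thus 1 of 10 genes was higher and 1 lower without overlap, against 7.86% and 13.1% of all genes tested. For the other 8 genes the ranges overlapped, and the intervals were wide: -1.0 to 1.2 for Klf6, -0.66 to 1.12 for Atf3 and -0.36 to 0.57 for Junb. An increase of Klf6 of the size seen in NPCs lies inside that interval.

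Library values show how the overlapping genes were spread in ESCs. Junb had 15.1 and 17.9 RPKM under the control siRNA against 13.9 and 22.7 RPKM under Cbx3 siRNA, so the knockdown pair enclosed the control pair, as it did for Myc (9.24 and 8.41 RPKM in control, 6.13 and 10.7 RPKM with Cbx3 siRNA) and for Fos (1.06 and 0.974 against 0.583 and 1.501 RPKM). Ier2, with 59.0 and 40.7 RPKM against 49.9 and 33.4 RPKM under Cbx3 siRNA, overlapped. Egr1 gave 0.864 and 1.86 RPKM against 0.543 and 0.939 RPKM, also overlapping (log2 difference -0.42, 95% interval -0.99 to 0.16). Jun (2.52 and 5.00 against 2.32 and 4.795 RPKM) and Atf3 (1.37 and 3.16 against 1.46 and 4.51 RPKM) differed more between replicates than between the 2 group means.

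Subtracting the ESC from the NPC log2 response gave 0.90 for Ier3 (SE 0.12), 0.71 for Junb (SE 0.28) and 0.49 for Klf6 (SE 0.67). In this contrast 0 (0%) of all genes tested were called (limma), and 233 had an unadjusted p under 0.05. It holds the NPC Cbx3 libraries, so the values for these genes are a description.

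The ESC replicates differed from each other in several of these genes more than the groups did. Replicate 2 divided by replicate 1 gave 1.99 and 2.07 for Jun in ESC control and ESC Cbx3 siRNA, 2.30 and 3.09 for Atf3, and 2.1 and 3.02 for Klf6. Ier2 went the other way, at 0.69 and 0.67. Klf6, for example, ranged from 12.3 to 25.6 RPKM between the ESC control replicates and from 10.9 to 32.9 RPKM between those given Cbx3 siRNA. The summed epithelial markers (6 of 6 detected at 1 RPKM) followed the same split, with 217.4 and 351.6 RPKM in ESC control and 191.8 and 464.5 RPKM in ESC Cbx3 siRNA, and library depth was lower in replicate 2. The part of either in the spread was not tested.

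Without knockdown, NPCs had less Ier3 and more Jun and Atf3 than ESCs. Ier3 was 0.50 times its ESC control mean (log2 difference -0.88, 95% interval -1.08 to -0.68). It was picked for its difference from these 2 NPC control libraries, so this value is a description without a test. Atf3 was 9.53 and 9.69 RPKM in NPC control against 1.37 and 3.16 RPKM in ESC control (log2 difference 1.76, adjusted p = 0.0224, limma). Jun was 9.58 and 8.62 RPKM against 2.52 and 5.00 RPKM (log2 difference 1.14, adjusted p = 0.0437, limma). Leaving out Ier3, the 2 genes called were Atf3 and Jun, both higher, beside 10.1% of all genes tested called higher and 5.94% lower. With the replicate block 6 of the 10 were called, beside 6912 of all 11956 genes tested (1918 without the block). The block removes the replicate difference within each cell type, which belongs to the spread of this comparison. Nothing is therefore read from the 6, among them Ier3, which was picked against these NPC controls. Atf3 lost its call without ESC control 1 (adjusted p = 0.0794), NPC control 1 (0.125) or NPC control 2 (0.120). Jun lost it without ESC control 1 (0.133), NPC control 1 (0.201), NPC control 2 (0.155), either NPC Cbx3 siRNA library (0.0780) or either NPC Med26 siRNA library (0.0817 and 0.0818).

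For the other 7 genes the NPC and ESC controls did not differ by the test. Klf6, whose 2 NPC controls (31.8 and 33.8 RPKM) lay above both ESC controls (12.3 and 25.6 RPKM), had an interval of -0.25 to 1.95 (adjusted p = 0.255, limma), and Dusp1, at 8.68 and 6.38 against 11.8 and 12.3 RPKM, had one of -1.18 to -0.07 (adjusted p = 0.113, limma). Ier2 was among the most abundant of the 10, at 33.4 to 61.7 RPKM in all libraries. Junb, Myc, Fos and Egr1 had adjusted p of 0.325 to 0.964 (limma). The 2 cell types also differ in the cells they hold: feeder fibroblast markers (10 of 12 at 1 RPKM or more, Lum below 0.1 RPKM) summed to 71.47 to 96.25 RPKM in the 4 ESC libraries and to 8.767 to 14.75 RPKM in the 6 NPC libraries. The part of feeder cells in the ESC values was not tested, and in bulk RNA fewer cells of a type and less RNA per cell cannot be told apart.

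Within NPCs the marker sums also moved with the knockdowns. Epithelial markers summed to 514.1 and 529.2 RPKM in control, to 806.7 and 836.4 RPKM with Cbx3 siRNA and to 715.1 and 739.1 RPKM with Med26 siRNA, so both knockdowns were above control, as Ier3, Junb and Klf6 were. Neural progenitor markers summed to 36.97 and 38.24 RPKM after Cbx3 siRNA and 55.19 and 55.96 RPKM after Med26 siRNA, on opposite sides of control. Feeder markers gave 11.86 and 10.17 RPKM with the control siRNA, 14.75 and 13.68 RPKM after Cbx3 siRNA and 9.336 and 8.767 RPKM after Med26 siRNA. Pluripotency markers were lower in both knockdowns, at 888.4 and 892.0 RPKM after Cbx3 siRNA and 941.6 and 968.0 RPKM after Med26 siRNA. Mesoderm markers lay on opposite sides of control (5.04 and 4.804 RPKM), at 6.75 and 7.46 RPKM after Cbx3 siRNA and 3.82 and 4.02 RPKM after Med26 siRNA. Neuron markers were 91.01 and 91.85 RPKM in control, 86.16 and 93.04 RPKM with Cbx3 siRNA and 80.57 and 85.58 RPKM with Med26 siRNA. Whether these shifts contribute to the immediate early genes was not tested.

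Other genes of the pathway were taken from 10 lists written with earlier results of these data known, which hold 126 genes beyond the 10. Of these, 113 were tested. After Med26 siRNA, 26 were higher and 7 lower, after Cbx3 siRNA in NPCs 25 higher and 4 lower, between NPC and ESC controls 15 higher and 14 lower, and after Cbx3 siRNA in ESCs 0 in either direction. The shares of all genes called, against which these and the following list counts stand, were 6.90% and 6.46%, 7.80% and 5.33%, 10.1% and 5.94%, and 0%, in the same order. The median log2 change was 0.16 after Med26 siRNA, 0.11 after Cbx3 siRNA in NPCs, 0.04 between controls and 0.00 after Cbx3 siRNA in ESCs, beside -0.00, 0.01, 0.03 and -0.03 for all genes tested. In the 10-library fit none of the 113 passed in either NPC knockdown. Both NPC knockdowns were set against the same control libraries, so their list counts and medians are not independent of each other. Since earlier results were known when the lists were written, no enrichment is read from list counts or medians here or below.

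The NF-kB list holds inhibitors, subunits and targets of this inflammatory transcription factor. Like the other lists it was written with earlier results of these data known, so its counts and medians are a description. Of 14 tested, 7 were higher and 0 lower after Med26 siRNA (median log2 change 0.48), beside 6.90% and 6.46% of all genes. After Cbx3 siRNA in NPCs 8 were higher and 0 lower (median 0.44), beside 7.80% and 5.33%. Icam1, an adhesion molecule, was 6.52 and 6.79 RPKM after Med26 siRNA against 3.57 and 3.88 RPKM in control (log2 change 0.70, adjusted p = 0.0165, limma). Nfkbia, the inhibitor that NF-kB itself induces, was 13.6 and 14.9 against 9.34 and 10.1 RPKM (0.51, adjusted p = 0.0127, limma). Tnfaip2 (0.60) and Bcl3 (0.62, adjusted p = 0.0473, limma) also passed, at no more than 1.45 RPKM in NPCs. Bcl3 (-2.41), Icam1 (-1.84) and the chemokine Ccl2 (-1.23) were lower in NPC than in ESC control.

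**Figure D3:**
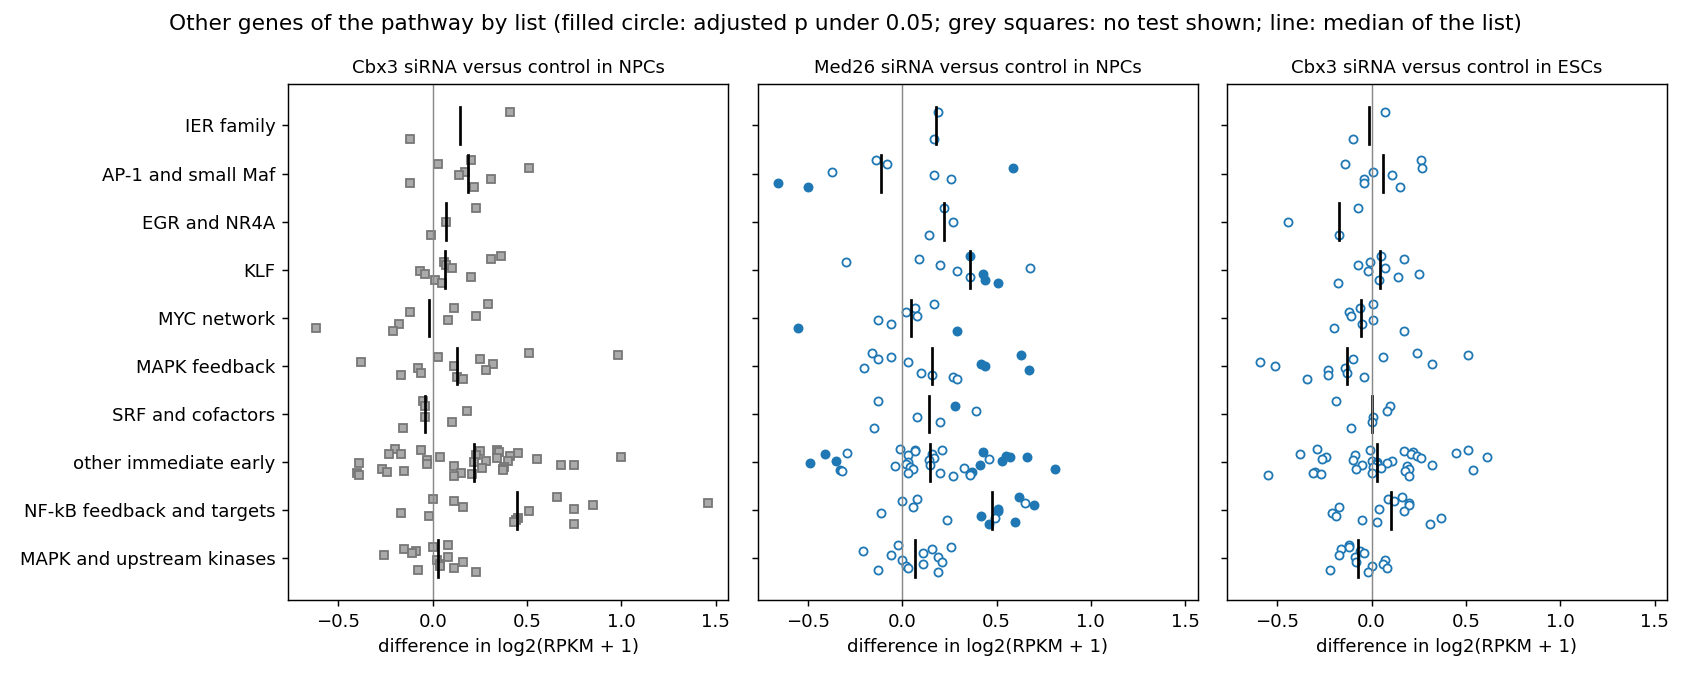
Difference in log2(RPKM + 1) of the other pathway genes (points, horizontal axis) by list (vertical axis) in 3 comparisons, with the median of each list as a line. Filled circles passed adjusted p under 0.05, and grey squares are the contrast from which the 10 genes were picked. The NF-kB list has medians of 0.44 and 0.48 in the 2 NPC knockdowns, which share their control libraries, and 0.11 in ESCs. Lists were written with earlier results of these data known, so the medians are a description.

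Among 35 other immediate early genes, 8 were higher and 4 lower after Med26 siRNA, beside 6.90% and 6.46% of all genes. Rhob, a small GTPase, was 29.4 and 28.7 RPKM against 16.4 and 15.9 RPKM in control (log2 change 0.81, adjusted p = 0.00182, limma). Gadd45b, a stress sensor, was 23.4 and 24.4 against 14.7 and 14.8 RPKM (0.66, adjusted p = 0.00299, limma). Gadd45a (0.57) and Errfi1, a feedback inhibitor of the EGF receptor (0.55), also rose. After Cbx3 siRNA in NPCs 10 were higher and 2 lower, and between controls 5 were higher and 4 lower (all genes 10.1% and 5.94%), with Id1 (1.15) and Gadd45b (1.10) higher and Sgk1 (-1.38) and Hbegf (-1.17) lower in NPCs.

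MAP kinase feedback genes, phosphatases and Sprouty or Spred inhibitors, gave 4 higher and 0 lower of 13 after Med26 siRNA: Spred1 (0.67), Dusp14 (0.63), Dusp6 (0.44) and Dusp5 (0.42). After Cbx3 siRNA in NPCs 4 were higher and 1 lower, and between controls 2 were higher and 2 lower, among them Spry4 (-1.66) and Spred1 (-0.92). Of the kinases that carry the signal, 0 of 14 passed in either NPC knockdown, and 1, Map2k2 (0.53), was higher in NPC than in ESC control. Of 6 genes for serum response factor and its cofactors, 1, Elk3 (0.28), was higher after Med26 siRNA and 0 passed after Cbx3 siRNA in NPCs. Between controls Srf was higher (0.81) and Elk3 lower (-0.66) in NPCs.

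Among transcription factor families, 4 of 10 other KLF genes rose and 0 fell after Med26 siRNA, beside 6.90% and 6.46% of all genes. They were Klf9 (29.7 and 29.8 against 20.2 and 21.0 RPKM, log2 change 0.51), Klf7 (0.44), Klf4 (0.43, below 1 RPKM in NPCs) and Klf10 (0.36). After Cbx3 siRNA in NPCs 1 was higher and 0 lower. The pluripotency-associated Klf4 (-3.18) and Klf2 (-2.26) and also Klf10 (-0.78) were lower in NPC than in ESC control, with 0 higher. Of 8 AP-1 and small Maf genes, Fosl2 rose (0.59) and Mafg (-0.66) and Mafk (-0.50) fell after Med26 siRNA. In the Cbx3 contrast 1 was higher and 0 lower, and 4 were higher in NPC control, Batf3 (0.85), Jund (0.70), Jdp2 (0.59) and Mafg (0.48).

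In the MYC network of 8 tested genes, Mycl fell (-0.55) and Mycn rose (0.29) after Med26 siRNA, and after Cbx3 siRNA 0 were higher and 1 lower. Mycl was higher (1.52) and Mycn lower (-0.60) in NPC than in ESC control. Of 3 EGR and NR4A genes tested, of 8 listed, 0 passed in any comparison. Of 2 other IER genes, 1 was higher after Cbx3 siRNA in NPCs, 0 passed after Med26 siRNA, and Ier5l (0.62) was higher in NPC than in ESC control.

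**Figure D4:**
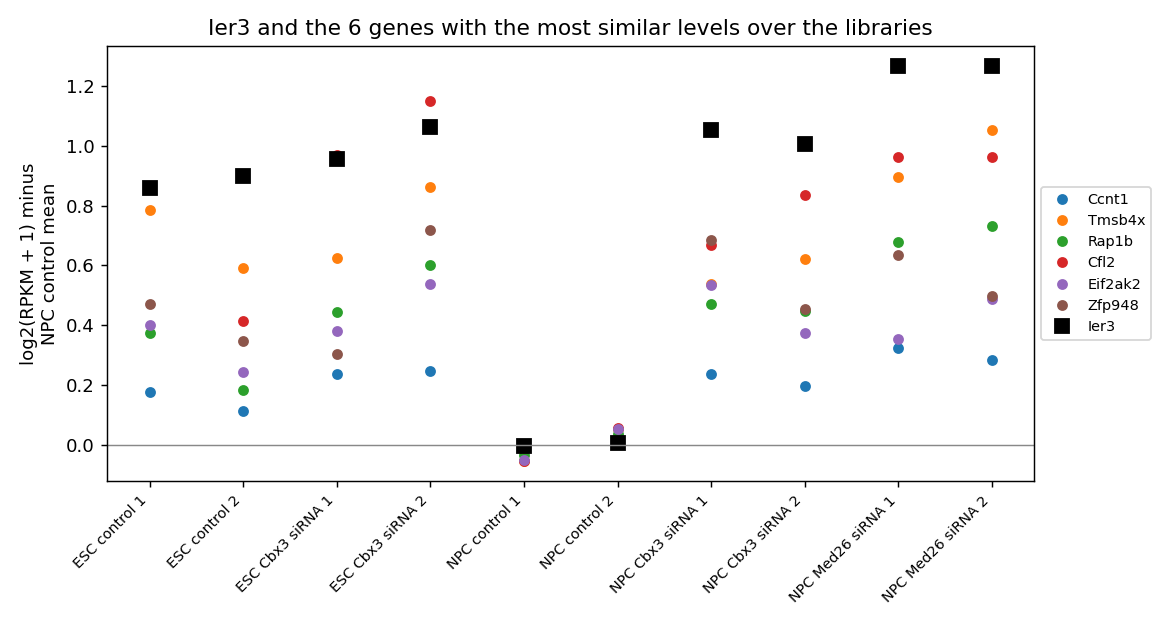
log2(RPKM + 1) of Ier3 (black squares) and of the 6 genes with the highest Pearson r to it, each minus its NPC control mean (vertical axis), in the 10 libraries (horizontal axis). Both NPC control libraries are lowest for Ier3 and for all 6 genes.

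The 6 genes whose levels over the 10 libraries were most like those of Ier3 were Ccnt1 (Pearson r 0.947), Tmsb4x (0.942), Rap1b (0.920), Cfl2 (0.898), Eif2ak2 (0.893) and Zfp948 (0.890). The 10 points share 5 groups, and the 6 were ranked from 11956 genes, so r is a description. Ccnt1, cyclin T1 of the elongation kinase P-TEFb, was 11.3 and 11.5 RPKM in NPC control and 12.4 to 14.5 RPKM in the other libraries, a narrower range than that of Ier3. Tmsb4x, which binds actin monomers, was 232 and 250 RPKM in NPC control and 350 to 501 RPKM elsewhere. Cfl2, an actin-severing cofilin, was 8.33 and 9.07 RPKM and 11.9 to 20.5 RPKM elsewhere. After Med26 siRNA, Tmsb4x (log2 change 0.97), Cfl2 (0.96), Rap1b (0.70), Zfp948 (0.57), Eif2ak2 (0.42) and Ccnt1 (0.30) were above control, given without a test because these libraries entered the ranking. Of the other immediate early genes, Junb (0.58), Fos (0.50), Myc (0.49) and Dusp1 (0.39) had the highest r with Ier3, and Klf6 had 0.10.

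The gene next to Ier3 on one side, Flot1, which encodes a membrane raft protein, had its highest levels after Med26 siRNA. Flot1 levels were 7.40 and 7.78 RPKM (NPC control), 7.55 and 8.46 RPKM after Cbx3 siRNA and 9.90 and 11.2 RPKM after Med26 siRNA (log2 change 0.43, adjusted p = 0.0306, limma, after Med26 siRNA). It did not differ between NPC and ESC controls by the test (log2 difference 0.06, adjusted p = 0.838, limma). On the other side, 4833427F10Rik was listed at 0 in all libraries. None of the 10 genes overlaps another gene in the RefSeq table.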

How the data were processed

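RNA was extracted with Trizol and made into TruSeq libraries, per the labels' protocols. The authors deposited RPKM values per RefSeq transcript, and the submitters' processing notes name TopHat2 2.08 and mm9. How reads were counted, and whether by strand, is unknown from the sources used here. Symbols came from the RefSeq gene table of GRCm38.p6 (99.07% of 35860 rows named), with 1 row per gene, the one of highest mean RPKM.

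RPKM is not a count, and steps in low values gave depths of 23.25 to 63.8 M reads, M being mega, with 64.4% to 69.6% of values within 0.1 reads of a whole step, too few to recover counts. Genes with at least 1 RPKM in 2 of 10 libraries were fitted as log2(RPKM + 1) in R 4.3.3 by limma 3.58.1 (empirical Bayes with intensity trend), two-sided, Benjamini-Hochberg adjusted over 11956 genes at 0.05. Comparisons within NPCs used the 6 NPC libraries (3 residual degrees of freedom), the others all 10 (5). The fit was also run on simulated libraries that were independent and had 1 spread for all genes. The real libraries differ from this setting, so no error rate is read from it. Alternatives were the other set of libraries, a replicate block, a pseudocount of 0.1, no filter, upper quartile scaling, median centring, the mean of a gene's rows, no trend, and each library left out.

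The 10 genes, the lists and the markers were chosen with earlier results of these data known. Named besides them are up to 4 passing genes per list and comparison, by size, the 6 genes most like Ier3, the neighbours of Ier3, and Cbx3 and Med26. The lists were IER family, AP-1 and small Maf, EGR and NR4A, KLF, MYC network, MAPK feedback, serum response factor and cofactors, other immediate early, NF-kB feedback and targets, and MAPK and upstream kinases. Marker lists were pluripotency, neural progenitor, neuron, fibroblast feeder, epithelium, endoderm, mesoderm, and blood and endothelium. Over the 10 libraries the neuron markers summed to 72.13 to 115.8 RPKM, endoderm to 0.7132 to 2.523, mesoderm to 1.753 to 7.455, and blood and endothelium to 5.722 to 12.65.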

Additional observations from a re-analysis of the deposited data

How the results depend on the processing

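With 2 libraries a group, calls depend on which libraries share the estimate of spread. In the other fit (10 libraries for NPC comparisons) the genes called of the 10 numbered 1 after Cbx3 siRNA in NPCs (4 as reported), 1 after Med26 siRNA (3), and 0 for Cbx3 against Med26 siRNA (4). Over all genes, that fit called 1 instead of 1570, 15 instead of 1597 and 120 instead of 2185. Without a filter, Cbx3 against Med26 siRNA called 2, and with median centring 2. With 1 library left out, the range was 0 to 2 there and 1 to 3 for NPC against ESC control.

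The labels do not say that replicate numbers pair samples. Deviations of same-numbered samples correlated at 0.89 between the ESC groups, at 0.42 to 0.46 between NPC groups and at -0.07 to -0.04 between ESC and NPC groups. With the replicate block, 7 of the 10 genes were called after Med26 siRNA, beside 3705 of all genes. After Cbx3 siRNA in ESCs 2 (Ier2 and Dusp1, both lower) were called, beside 813 of all genes. Between the controls 6 of the 10 were called, Ier3 among them, beside 6912 of all genes, so nothing is read from this count. For the NPC minus ESC response, which holds the libraries Ier3 was picked from, 1 of the 10 (Ier3) and 6 of all genes were called.

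Over all genes the block called 3495, 3705 and 6912 for Cbx3 siRNA in NPCs, Med26 siRNA and the controls (1918 as reported for the controls), and 813 for Cbx3 siRNA in ESCs. The no-filter fit called 876 and 611 in the 2 NPC knockdowns. Leaving out 1 library gave 391 to 1063, 164 to 1148 and 185 to 2699 calls in the same order of the first 3.

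With 1 library left out, the log2 change after Cbx3 siRNA in ESCs ran from -0.54 to 0.02 for Ier2, -0.22 to 0.44 for Junb, -0.47 to 0.34 for Jun, -0.35 to 0.31 for Fos, -0.35 to 0.81 for Atf3, -0.66 to 0.85 for Klf6 and -0.46 to 0.26 for Myc. Between controls it ran from -0.02 to 0.50 for Ier2, -0.13 to 0.10 for Junb and -0.37 to 0.24 for Egr1, and after Med26 siRNA from -0.23 to 0.19 for Egr1. Fos after Cbx3 siRNA in ESCs was 0.01 with median centring. Jun between controls had adjusted p = 0.0517 with a pseudocount of 0.1 and 0.0724 with no filter (limma). Ier3 passed after Med26 siRNA under every alternative run, but each run used NPC control libraries against which Ier3 was picked. The cause of the other changes was not tested.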
